A study of Homo sapiens with 6 samples.

Results

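The 46 genes described here are NFE2L2, which encodes the transcription factor NRF2, its regulators, and genes of glutathione, thioredoxin, peroxide, NADPH, iron and detoxification metabolism. They were taken by gene symbol from the table of 58676 genes, and each of the 46 symbols had a row. RNA sequencing was performed on DCIS.COM cells, an established human breast cell line of basal type that serves as a model of ductal carcinoma in situ. Cells had been transduced with a PLKO.1 lentiviral vector carrying either a non-silencing shRNA (NS control, 3 flasks) or a BCL9 shRNA of a single sequence (BCL9 KD, 3 flasks), and all 6 flasks were grown in the same medium with horse serum. The comparison of BCL9 KD with NS control asked which genes change in expression when BCL9, a transcriptional co-activator, is knocked down.

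NRF2 drives genes that protect cells from oxidants and reactive chemicals. In unstressed cells the adaptor KEAP1 holds NRF2 for ubiquitination by a ligase built on CUL3 and RBX1, and oxidants release it. NRF2 then pairs with a small MAF protein such as MAFG on antioxidant response elements, where BACH1 acts as a repressor. Typical targets make glutathione, recycle thioredoxin, supply NADPH, store iron and modify quinones and aldehydes.

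BCL9 (ENSG00000116128) was at 6.25, 6.24 and 5.34 FPKM in NS control replicates 1 to 3 and at 2.86, 2.78 and 2.59 FPKM in BCL9 KD replicates 1 to 3. FPKM is the number of reads on a gene, scaled by the length of the gene and by the reads counted in the sample. On the log2 scale BCL9 fell by 0.99 with a standard error of 0.0933 (limma adjusted p = 0.00773). The samples held between 15222452 and 26949026 reads on genes. NS control replicate 1 stood apart in base composition, with values that rose by 0.209 on the log2 scale for each 10 percentage points of GC content in a gene's transcripts, against −0.0748 to 0.0145 in the other samples. The 7 epithelial markers of the basal list, KRT5, KRT14, KRT17, TP63, ITGA6, EPCAM and CDH1, were all present. Their summed level was 1541 to 1608 FPKM in NS control and 1582 to 1604 FPKM in BCL9 KD samples. Markers of fibroblasts summed to at most 0.905 FPKM in any sample. Leukocyte markers summed to 0.460 to 0.661 FPKM in NS control and 0.938 to 1.53 FPKM in BCL9 KD samples, most of it CD14, and PTPRC, CD3E, COL3A1 and DCN were at or near 0. The endothelial list summed to 1.80 to 2.42 FPKM in NS control and 3.22 to 4.06 FPKM in BCL9 KD samples, nearly all of it PECAM1, which rose (limma adjusted p = 0.0477), while CDH5, VWF and KDR were near 0. The luminal list summed to 434 to 551 FPKM in NS control and 396 to 413 FPKM in BCL9 KD samples, with PGR at 0. Ribosomal RNA genes took 0.605 to 0.857% of reads in NS control and 0.413 to 0.580% in BCL9 KD samples. The part of these shifts in the results was not tested.

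Of the 46 genes, 42 had a mean of at least 0.5 FPKM over the 6 samples and were tested in a fit of 13745 genes. Catalase (CAT), superoxide dismutase 1 (SOD1) and thioredoxin (TXN) rose in BCL9 KD cells, and ferritin heavy chain (FTH1) fell. These 4 genes are 9.52% of the 42 tested, and 5.87% of all genes tested passed the same limma adjusted p under 0.05. Genes higher in BCL9 KD made up 3 of the 42, against 2.96% of all genes tested, and genes lower made up 1, against 2.91%. The FPKM values of both groups did not overlap for 13 of the 42 genes (31.0%), and this held for 34.2% of all genes tested. The median log2 fold change was 0.07 over the 42 genes and 0.04 over all genes tested, and 26 of the 42 (61.9%) were above 0, against 55.4% of all genes tested. In bulk RNA, a change in the level per cell and a change in the share of cells that express a gene cannot be told apart.

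**Figure D1:**
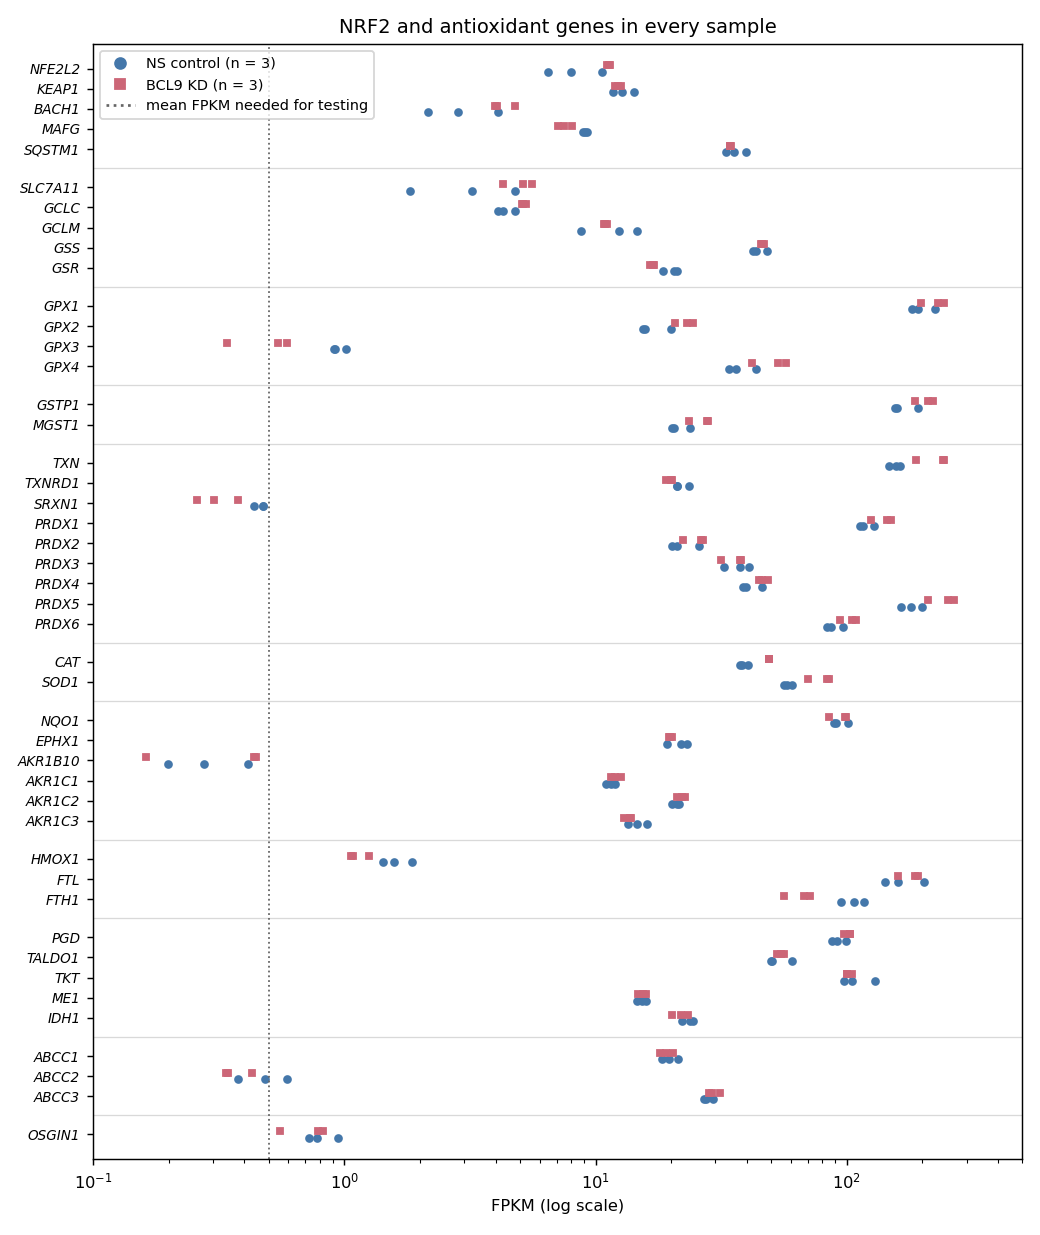
FPKM (log axis) of 45 of the 46 genes in each of the 3 NS control (circles) and 3 BCL9 KD samples (squares), grouped by role. GSTM3, with 1 read in all samples, is not drawn, and the dotted line marks the mean of 0.5 FPKM needed for testing. Levels run from under 0.5 FPKM in every sample for SRXN1 and AKR1B10 to 267 FPKM for PRDX5, and the groups overlap for most genes.

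FTH1 (ENSG00000167996, chromosome 11 of hg38 from 61959718 to 61967660), the ferritin subunit that oxidises iron for storage, showed the largest fold change of the 42 genes on the log2(FPKM + 0.5) scale, on which low genes such as GPX3 change less. It was at 117, 94.5 and 106 FPKM in NS control and at 56.0, 67.3 and 71.3 FPKM in BCL9 KD replicates 1 to 3. The highest BCL9 KD sample was below the lowest NS control sample. From a mean of 106 ± 11.4 FPKM it went to 64.9 ± 7.97 FPKM (SD, n = 3), and on the log2 scale it fell by 0.71 with a standard error of 0.119 (limma adjusted p = 0.0291). At least 2009 reads lay behind each value. FTL, the light chain that joins FTH1 in the ferritin shell, did not pass, with 203, 142 and 160 FPKM in NS control and 160, 186 and 192 FPKM in BCL9 KD replicates. Its log2 fold change was 0.10, with a 95% confidence interval from −0.23 to 0.44. The FTL value was 0.24 without NS control replicate 1 and −0.01 with quantile normalization. FTH1 made up 36.7, 39.9 and 40.0% of the summed FTH1 and FTL level in NS control and 26.0, 26.6 and 27.1% in BCL9 KD replicates, a share computed after both genes' values had been seen. Ferritin genes have many processed pseudogenes, and the 25 listed FTH1 pseudogenes together held 0.867% of the reads on FTH1 and its pseudogenes in NS control and 1.204% in BCL9 KD samples. How reads that match several places were treated is not given in the sources used here.

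HMOX1 encodes heme oxygenase 1, which opens heme and frees its iron, and it is a classical NRF2 and BACH1 target. It was at 1.43, 1.58 and 1.86 FPKM in NS control and at 1.08, 1.25 and 1.06 FPKM in BCL9 KD replicates. The groups did not overlap, but the log2 fold change of −0.38 did not pass (limma adjusted p = 0.119), with 40 to 81 reads per sample.

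CAT (ENSG00000121691, chromosome 11 from 34438925 to 34472062) encodes catalase, the peroxisomal enzyme that splits hydrogen peroxide. It was at 37.6, 40.3 and 38.2 FPKM in NS control and at 49.0, 49.2 and 48.8 FPKM in BCL9 KD replicates. The BCL9 KD values were almost equal to each other and all above the NS control values. Mean FPKM went from 38.7 ± 1.43 to 49.0 ± 0.212 (SD, n = 3), a rise of 0.34 on the log2 scale with a standard error of 0.0611 (limma adjusted p = 0.0340). SOD1 (ENSG00000142168, chromosome 21 from 31659622 to 31668931), the cytosolic enzyme that turns superoxide into hydrogen peroxide, was at 57.8, 56.2 and 60.3 FPKM in NS control and at 70.0, 83.4 and 84.9 FPKM in BCL9 KD replicates. Its groups did not overlap either, and BCL9 KD replicate 1 was the lowest of its group. Mean FPKM went from 58.1 ± 2.03 to 79.4 ± 8.21 (SD, n = 3), a rise of 0.44 on the log2 scale with a standard error of 0.0902 (limma adjusted p = 0.0422).

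TXN (ENSG00000136810, chromosome 9 from 110243811 to 110256640) encodes thioredoxin, the small protein that reduces disulfides in peroxiredoxins and other proteins. It was at 162, 147 and 157 FPKM in NS control and at 188, 243 and 242 FPKM in BCL9 KD replicates. The groups did not overlap, and BCL9 KD replicate 1 was again the lowest of its group. Mean FPKM went from 155 ± 7.92 to 224 ± 31.4 (SD, n = 3), a rise of 0.52 on the log2 scale with a standard error of 0.114 (limma adjusted p = 0.0485). TXN transcripts have the lowest GC content of the 42 genes, 35.6%, and after each sample was corrected for GC content the log2 fold change was 0.29 (limma adjusted p = 0.373). TXNRD1, the reductase that recharges thioredoxin with NADPH, did not pass. It was at 21.0, 23.5 and 21.1 FPKM in NS control and at 19.1, 19.9 and 20.2 FPKM in BCL9 KD replicates (log2 fold change −0.15, 95% confidence interval −0.32 to 0.03, limma adjusted p = 0.241). The values of TXNRD1 did not overlap between the groups, with BCL9 KD lower.

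The calls of these genes were close to the threshold. With no filter on low FPKM, or with limma without the mean-variance trend, 0 of the 4 genes passed (limma adjusted p from 0.0515 to 0.138), while 0.462% and 2.42% of all genes passed in these fits. At an unadjusted p under 0.05 there were 15 and 14 members (32.6% and 33.3%), against 14.3% and 26.5% of all genes. With median-of-ratios scaling FTH1 passed alone (limma adjusted p = 0.0392), which is 2.38% of the 42, where 3.90% of all genes passed. Leaving out NS control replicate 2, BCL9 KD replicate 2 or BCL9 KD replicate 3 left 0 members called by limma, with 9, 10 and 8 (21.4%, 23.8% and 19.0%) at an unadjusted p under 0.05, against 19.0%, 17.5% and 16.9% of all genes. Of all genes tested, 12, 13 and 5 were called in these fits, so the count of 0 is near the background. Without NS control replicate 1, the sample with the different GC slope, CAT and FTH1 passed together with GPX2. These are 7.14% of the 42, where 4.98% of all genes passed. TXN was also lost without NS control replicate 3 (limma adjusted p = 0.0543) and CAT without BCL9 KD replicate 1 (limma adjusted p = 0.0512). Over the 6 fits that each left out a sample, TXN passed in 1, CAT in 2, SOD1 in 2 and FTH1 in 3, each with its direction kept.

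**Figure D2:**
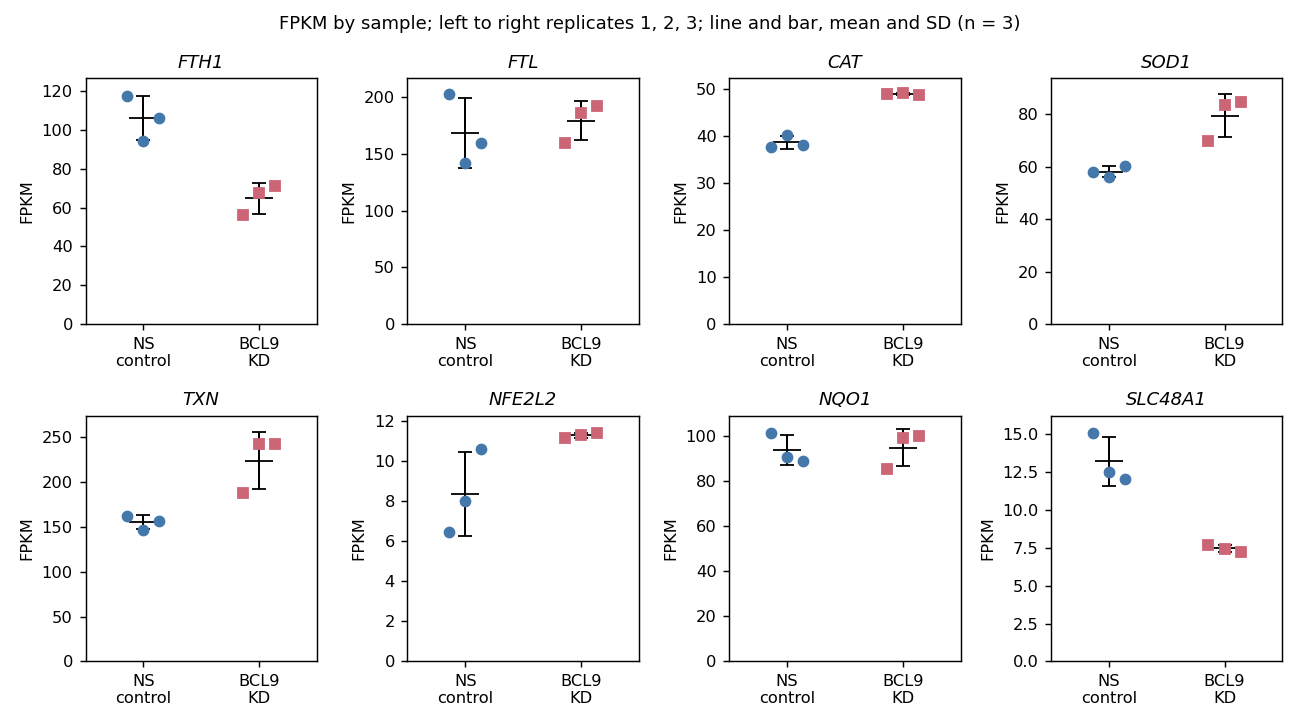
FPKM of 7 members and of the heme transporter gene SLC48A1 in each sample, with replicates 1 to 3 from left to right in each group and the mean and SD (n = 3) as black lines, on axes that start at 0. FTH1 and SLC48A1 were lower and CAT, SOD1 and TXN higher in all 3 BCL9 KD samples, whereas FTL and NQO1 overlapped and NFE2L2 varied from 6.47 to 10.6 FPKM among the NS control samples.

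None of the 5 regulators passed the test. NFE2L2 (ENSG00000116044, chromosome 2 from 177227595 to 177392697) was at 6.47, 8.002 and 10.6 FPKM in NS control and at 11.1, 11.3 and 11.4 FPKM in BCL9 KD replicates. All 3 BCL9 KD values were above the NS control values, which were spread far more widely. The log2 fold change was 0.44 (95% confidence interval 0.06 to 0.82, limma adjusted p = 0.139), and it was 0.33 after the GC correction and 0.28 without NS control replicate 1. Without NS control replicate 3, the highest of its group, it was 0.61 and passed (limma adjusted p = 0.0298). In that fit 12.6% of all genes passed, against 5.87% with all samples. BACH1, the repressor on the same elements, had a like spread, with 2.16, 2.84 and 4.08 FPKM in NS control and 4.79, 3.996 and 4.05 FPKM in BCL9 KD replicates (log2 fold change 0.47, limma adjusted p = 0.178). BACH1 values overlapped between the groups by NS control replicate 3 alone, and without it BACH1 passed (log2 fold change 0.68, limma adjusted p = 0.0384), while without NS control replicate 1 the log2 fold change was 0.29. The span of NFE2L2 overlaps that of AGPS on the other strand, and the counting is not stated to use strand.

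KEAP1 (ENSG00000079999, chromosome 19 from 10486120 to 10503741) was at 14.2, 12.8 and 11.7 FPKM in NS control and at 12.0, 12.7 and 12.3 FPKM in BCL9 KD replicates. Its groups overlapped, with a log2 fold change of −0.06 and a 95% confidence interval from −0.27 to 0.14. The autophagy receptor SQSTM1, which binds KEAP1 and is itself an NRF2 target, was at 39.7, 35.5 and 33.0 FPKM in NS control and at 34.6, 34.3 and 34.3 FPKM in BCL9 KD replicates, also with overlap (log2 fold change −0.06, 95% confidence interval −0.26 to 0.13). The direction of both genes turned above 0 after the GC correction and without NS control replicate 1. MAFG, the small MAF partner, was at 8.96, 9.05 and 9.26 FPKM in NS control and at 7.07, 8.04 and 7.47 FPKM in BCL9 KD replicates. All BCL9 KD values were lower, but the log2 fold change of −0.26 did not pass (limma adjusted p = 0.0851). The gene span of MAFG overlaps that of SIRT7 in the deposited table, on the same strand.

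The classical NRF2 target NQO1, a quinone reductase, was at 101, 90.3 and 88.8 FPKM in NS control and at 85.1, 98.8 and 99.7 FPKM in BCL9 KD replicates. The groups overlapped, and the log2 fold change of 0.02 had a 95% confidence interval from −0.20 to 0.23. It was below 0 under quantile normalization, under median-of-ratios scaling and without NS control replicate 2 or 3 or BCL9 KD replicate 2 or 3. The aldo-keto reductases AKR1C1, AKR1C2 and AKR1C3, which reduce steroids and reactive aldehydes, also overlapped between the groups. AKR1C1 was at 11.9, 11.0 and 11.5 FPKM in NS control and at 12.6, 11.9 and 11.5 FPKM in BCL9 KD replicates (log2 fold change 0.06). AKR1C2 was at 21.0, 20.1 and 21.5 FPKM and at 21.1, 22.7 and 22.1 FPKM (log2 fold change 0.07), and AKR1C3 at 16.1, 13.4 and 14.6 FPKM and at 13.9, 13.7 and 13.0 FPKM (log2 fold change −0.11). The confidence intervals of these 3 genes stayed between −0.31 and 0.23. Their sequences are alike and their spans overlap on chromosome 10 in the deposited table, so the split of reads among them is uncertain, and their summed level was 44.6 to 49.0 FPKM in NS control and 46.6 to 48.3 FPKM in BCL9 KD samples. EPHX1, an epoxide hydrolase, had a log2 fold change of −0.11, and AKR1B10 was under 0.5 FPKM in every sample.

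Among the genes of glutathione synthesis, none passed. SLC7A11, the transporter that brings in cystine, was at 1.84, 3.22 and 4.77 FPKM in NS control and at 5.57, 4.30 and 5.15 FPKM in BCL9 KD replicates. On the log2(FPKM + 0.5) scale it had the largest positive fold change of the 42 genes, 0.62, and also a wide 95% confidence interval, from −0.04 to 1.28, with overlapping groups. It was 0.31 without NS control replicate 1. Without NS control replicate 3, where 12.6% of all genes passed, it was 0.90 (limma adjusted p = 0.0478). With the GC correction it was 0.41 (limma adjusted p = 0.161). GCLC and GCLM encode the catalytic and modifier subunits of glutamate-cysteine ligase, the first enzyme of glutathione synthesis. GCLC was at 4.08, 4.801 and 4.30 FPKM in NS control and at 5.09, 5.15 and 5.28 FPKM in BCL9 KD replicates, without overlap (log2 fold change 0.22, limma adjusted p = 0.159). GCLM was at 8.74, 12.4 and 14.7 FPKM in NS control and at 11.2, 10.8 and 10.9 FPKM in BCL9 KD replicates, which lay within the NS control range (log2 fold change −0.09, 95% confidence interval −0.49 to 0.32). The GCLM value was −0.29 without NS control replicate 1 and turned to 0.07 without NS control replicate 3.

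GSS, which completes glutathione, had a log2 fold change of 0.05 (95% confidence interval −0.12 to 0.21). GSR, which reduces oxidised glutathione with NADPH, was at 21.2, 20.4 and 18.5 FPKM in NS control and at 16.9, 17.1 and 16.4 FPKM in BCL9 KD replicates. The GSR groups did not overlap, with BCL9 KD lower, and the log2 fold change was −0.24 (limma adjusted p = 0.0937). It passed without NS control replicate 3 (log2 fold change −0.30, limma adjusted p = 0.0446), where 12.6% of all genes passed.

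Sequences that carry the letters of an antioxidant response element are shown because NRF2 is known to act through them. RefSeq promoters of GRCh38.p14, from 250 bases before to 50 bases after a start site, were found for 35 of the 46 genes, and they were searched on both strands for TGACNNNGC. A match was found in 11 of the 51 promoters of these genes (21.6%), belonging to 10 genes, and in 13.3% of all 35116 promoters in the table. The 10 genes are PGD, GCLM, EPHX1, IDH1, ME1, GSTP1, MGST1, TXNRD1, GPX2 and KEAP1. The stretches of 5 of them, 29 bases each, lie before the RefSeq start site, run 5′ to 3′ on the strand of the gene, and have the matching letters in capitals. Those of GCLM and PGD match on the opposite strand. The deposited table starts GCLM, GSTP1 and PGD further upstream, so that these stretches lie wholly or in part inside its gene spans.
GCLM (chr1:93909446-93909474, minus strand): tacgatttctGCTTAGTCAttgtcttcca
TXNRD1 (chr12:104215670-104215698, plus strand): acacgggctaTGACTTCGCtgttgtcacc
GSTP1 (chr11:67583736-67583764, plus strand): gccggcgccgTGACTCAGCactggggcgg
ME1 (chr6:83431170-83431198, minus strand): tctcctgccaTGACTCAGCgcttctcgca
PGD (chr1:10398853-10398881, plus strand): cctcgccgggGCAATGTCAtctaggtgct

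The matching letters begin 34 bases before the start site in GCLM, 99 in TXNRD1, 66 in GSTP1, 137 in ME1 and 201 in PGD. GSTP1 and ME1 share all 9 letters of the match. All 10 genes with a match were tested and 0 of them passed by limma, where 5.87% of all genes tested passed, with log2 fold changes from −0.15 for TXNRD1 to 0.42 for GPX2 and a median of −0.03. In the 22 tested genes without a match the median was 0.09, and CAT and TXN are among them. The other called genes, SOD1 and FTH1, are among the 11 members that were not in the promoter table. With each sample corrected for GC content, 3 of the 10 genes with a match (GPX2, GSTP1 and PGD) and 3 of the 22 without (CAT, PRDX5 and GPX4) passed, against 11.9% of all genes tested in that fit, so the count of calls by match depends on that correction. A match of letters in this window is a description and does not show that a factor binds. The lack of a match covers only these 300 bases, and NQO1, GCLC and FTL are among the genes without one.

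The glutathione peroxidases reduce peroxides with glutathione. GPX3, the secreted form, was at 0.919, 1.02 and 0.914 FPKM in NS control and at 0.590, 0.340 and 0.545 FPKM in BCL9 KD replicates, on 27 to 66 reads. The groups did not overlap, and the log2 fold change of −0.56 did not pass (limma adjusted p = 0.0896), while voom on the reads recovered from the FPKM gave −1.05 (limma adjusted p = 0.0394). The ratio of mean FPKM was 0.518 for GPX3 and 0.612 for FTH1. GPX2, the form of epithelial cells, had 17.0 ± 2.58 FPKM in NS control and 22.8 ± 1.82 FPKM in BCL9 KD (SD, n = 3), without overlap (log2 fold change 0.42, limma adjusted p = 0.0814). Its gene span overlaps CHURC1 on the other strand. The counting is not stated to use strand, and how reads in the shared stretch were assigned was not tested. GPX4, which repairs lipid peroxides, had 37.9 ± 4.99 and 50.7 ± 7.91 FPKM (SD, n = 3; log2 fold change 0.41, limma adjusted p = 0.120), with overlap. GPX1, the abundant cytosolic form, overlapped between the groups at 182 to 225 and 197 to 243 FPKM (log2 fold change 0.16). The GPX1 value was 0.25 without NS control replicate 1 and −0.02 with quantile normalization.

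The peroxiredoxins, which reduce peroxides with electrons from thioredoxin, had fold changes mostly above 0, and none of the 6 passed. PRDX5, which together with GPX1 had the highest level of the 46 genes over all 6 samples (means of 212 and 211 FPKM), was at 199, 164 and 181 FPKM in NS control and at 210, 267 and 253 FPKM in BCL9 KD replicates. Its groups did not overlap (log2 fold change 0.42, limma adjusted p = 0.0745). It passed with voom (0.42, limma adjusted p = 0.0479), and with quantile normalization it was 0.23 and did not pass (limma adjusted p = 0.0852). PRDX1, PRDX2, PRDX4 and PRDX6 had log2 fold changes from 0.16 to 0.23, and PRDX3, the mitochondrial form, had −0.04. The 6 genes summed to 527, 460 and 480 FPKM in NS control and to 527, 636 and 616 FPKM in BCL9 KD replicates, and BCL9 KD replicate 1 was at the level of NS control replicate 1. SRXN1, which repairs overoxidised peroxiredoxins, was under the filter at 0.473, 0.476 and 0.438 FPKM in NS control and 0.377, 0.303 and 0.260 FPKM in BCL9 KD replicates, on 11 to 29 reads. Its groups did not overlap, and the exact two-sided permutation p of 0.1 is the lowest that 3 samples against 3 can give.

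Glutathione transferases join glutathione to reactive chemicals. GSTP1, the main form in many epithelial cells, was at 169 ± 20.8 FPKM in NS control and 206 ± 17.9 FPKM in BCL9 KD (SD, n = 3), with overlap (log2 fold change 0.29, limma adjusted p = 0.148). The membrane-bound MGST1 also overlapped (21.5 ± 2.03 and 26.4 ± 2.56 FPKM, SD, n = 3, log2 fold change 0.29, limma adjusted p = 0.127). GSTM3 had 1 read, in NS control replicate 2, so no change was detectable at this depth.

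None of the genes grouped here under NADPH and the pentose phosphate pathway passed. PGD, TALDO1 and TKT of the pentose phosphate pathway, the malic enzyme ME1 and the isocitrate dehydrogenase IDH1 all overlapped between the groups, with log2 fold changes from −0.11 for TKT to 0.13 for PGD. ME1 lay between 14.7 and 15.9 FPKM in all 6 samples, with a 95% confidence interval of the log2 fold change from −0.16 to 0.17. TKT was highest in NS control replicate 1, at 129 FPKM, and between 97.8 and 105 FPKM in the other samples. The TKT fold change was 0.0027 without that replicate and −0.02 with the GC correction. The drug and conjugate exporters ABCC1 (log2 fold change −0.04) and ABCC3 (0.08) overlapped, and ABCC2 was under the filter at 0.339 to 0.593 FPKM (two-sided exact permutation test, p = 0.2). AKR1B10, also under the filter, had 5 to 21 reads (two-sided exact permutation test, p = 0.8). OSGIN1, an oxidative stress induced growth inhibitor, was at 0.776, 0.943 and 0.721 FPKM in NS control and at 0.785, 0.826 and 0.553 FPKM in BCL9 KD replicates, with overlap (log2 fold change −0.11). When a replicate was left out, the OSGIN1 value ran from −0.17 to −0.0055.

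**Figure D3:**
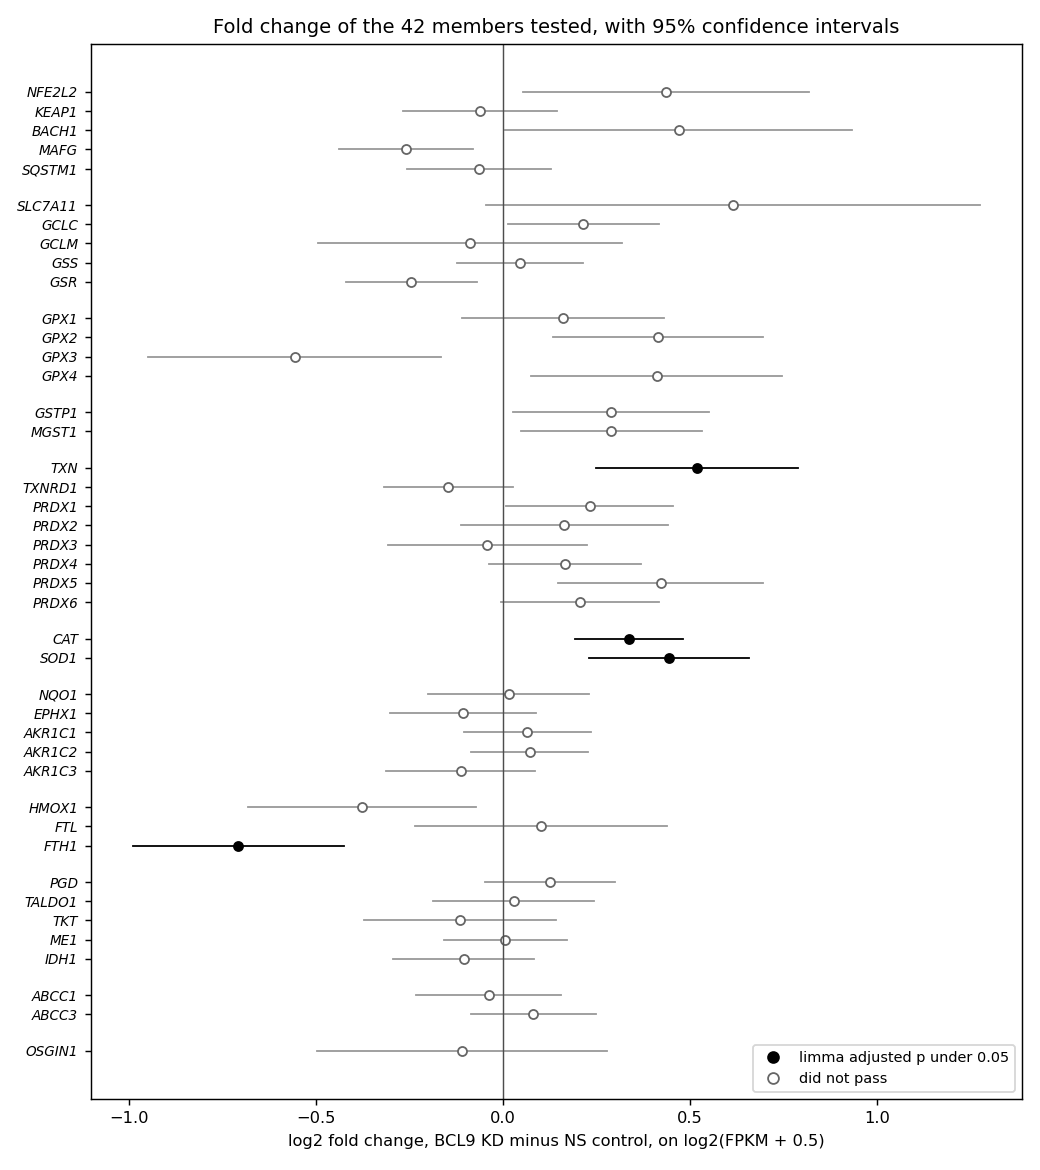
The log2 fold change of BCL9 KD minus NS control for the 42 members tested, by role, with unadjusted 95% confidence intervals from limma. Filled points passed the limma adjusted p under 0.05. TXN, CAT and SOD1 lie to the right of 0 and FTH1 to the left. The intervals of NQO1, the AKR1C genes and all genes of the NADPH group cross 0.

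Base composition moved with several of these values. With each sample corrected for transcript GC content, 8 of the 42 genes passed (19.0%), against 4 without the correction. Of the 8, 7 were higher and 1 lower, and the calls over all genes were not split by direction in this fit. The median log2 fold change of the members was 0.12, against 0.04 over all genes tested in the same fit. CAT (0.34, limma adjusted p = 0.0126), SOD1 (0.50, limma adjusted p = 0.0207) and FTH1 (−0.62, limma adjusted p = 0.0179) passed in both fits, while TXN passed only without the correction. GPX2 (0.49), PRDX5 (0.51), GPX4 (0.48), GSTP1 (0.37) and PGD (0.21) passed only with it, at limma adjusted p from 0.0197 to 0.0434. The GC content of these 5 genes runs from 53.7% for GPX2 to 62.7% for GPX4, and the median over all genes tested is 49.2%. The same correction raised the number of all genes called from 807 to 1630 (11.9%).

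**Figure D4:**
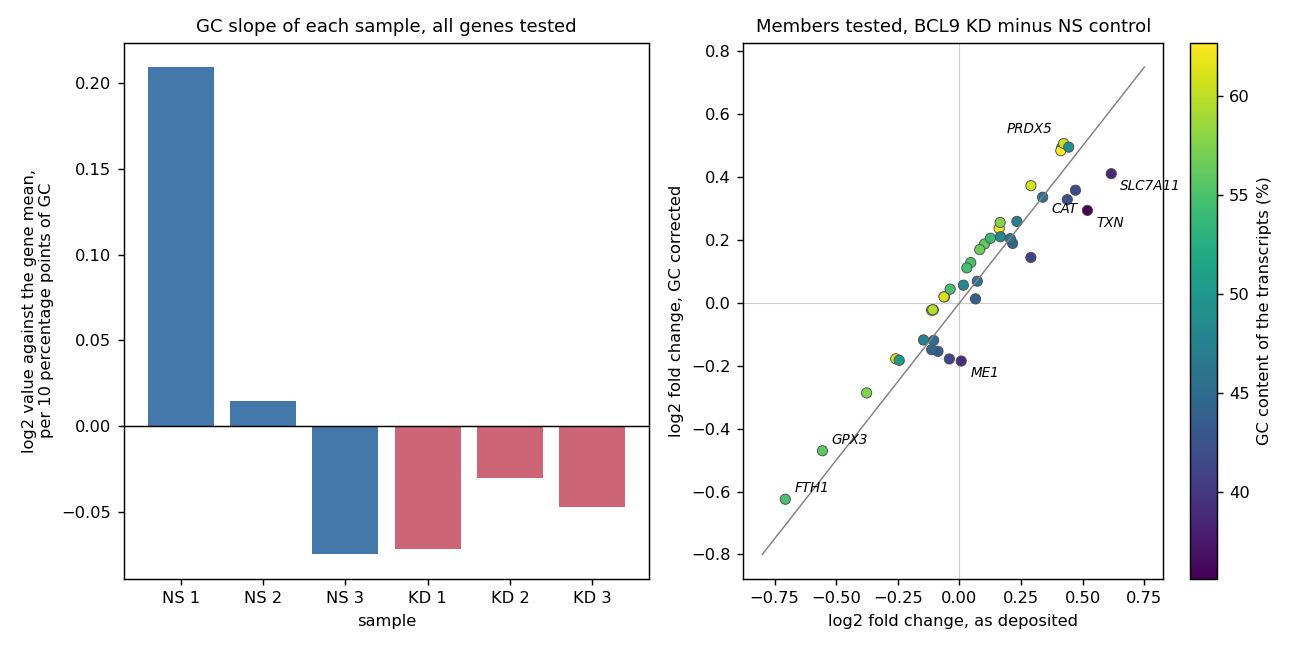
Left, slope of each sample's log2 values, taken against the gene mean, per 10 percentage points of transcript GC content over all genes tested, with NS for NS control and KD for BCL9 KD. Right, log2 fold change of the 42 members after the GC correction against the fold change as deposited, coloured by GC content, with the line of equal values. NS control replicate 1 has a slope of 0.209 and the other samples −0.0748 to 0.0145, and GC-rich members lie above the line and GC-poor members such as TXN, SLC7A11 and ME1 below it.

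A further list of 79 genes of the same pathways, none of them among the 46, was compared in the same fit. Of these, 62 were tested, 7 rose and 1 fell, which is 12.9% of the 62, against 5.87% of all genes tested (2.96% higher and 2.91% lower). The median log2 fold change was 0.10, against 0.04 over all genes tested. The 8 calls became 2 with no filter on low FPKM (TXNIP and SLC48A1) and 0 by limma without NS control replicate 2, BCL9 KD replicate 2 or BCL9 KD replicate 3, with 17, 13 and 12 (27.0%, 21.0% and 19.4%) at an unadjusted p under 0.05, against 19.0%, 17.5% and 16.9% of all genes. With median-of-ratios scaling RBX1, MAFF and AKR1B1 did not pass (limma adjusted p = 0.0614, 0.0753 and 0.0684). Among the relatives and partners of NRF2, 3 rose. NFE2L3, a related transcription factor, was at 10.6, 15.4 and 14.2 FPKM in NS control and at 20.6, 21.0 and 21.2 FPKM in BCL9 KD replicates (log2 fold change 0.64, limma adjusted p = 0.0438). MAFF, another small MAF partner, was at 8.04, 7.24 and 7.46 FPKM and at 10.01, 10.02 and 10.16 FPKM (log2 fold change 0.39, limma adjusted p = 0.0340). RBX1, the RING subunit of the CUL3 ligase, was at 11.9, 10.5 and 10.4 FPKM and at 14.6, 21.5 and 20.6 FPKM (log2 fold change 0.74, limma adjusted p = 0.0422). The groups did not overlap for any of the 3 genes.

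Of the thioredoxin and glutathione genes on this list, TXNIP and MSRB2 rose. TXNIP encodes an inhibitor of thioredoxin that also restrains glucose uptake, and it was at 39.7, 42.9 and 41.5 FPKM in NS control and at 61.4, 62.2 and 60.9 FPKM in BCL9 KD replicates. The replicates of each group were close and the groups far apart (a rise of 0.57 on the log2 scale with a standard error of 0.0620, limma adjusted p = 0.0109). MSRB2, a mitochondrial enzyme that repairs oxidised methionine, had 2.498 ± 0.224 and 3.85 ± 0.0947 FPKM (SD, n = 3, log2 fold change 0.54, limma adjusted p = 0.0291). MGST3, a microsomal glutathione transferase, had 2.64 ± 0.0661 and 4.76 ± 0.60 FPKM (SD, n = 3, log2 fold change 0.74, limma adjusted p = 0.0199). The aldose reductase gene AKR1B1 had 18.1 ± 1.38 and 26.0 ± 2.63 FPKM (SD, n = 3, log2 fold change 0.51, limma adjusted p = 0.0387).

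SLC48A1, which encodes a transporter that moves heme out of lysosomes, was the gene of this list that fell. It was at 15.0, 12.5 and 12.1 FPKM in NS control and at 7.70, 7.43 and 7.23 FPKM in BCL9 KD replicates. All BCL9 KD values were below the lowest NS control value, and on the log2 scale the gene fell by 0.78 with a standard error of 0.0975 (limma adjusted p = 0.0145).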

How the data were processed

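STAR was used by the authors to align read pairs, HTSeq 0.6.1 to count them per gene (the build, hg38, and the tools are also in the submitters' processing notes), and the FPKM deposited by the authors scale each count by gene length and depth. Replicates were not pooled. The table also gives the gene length in bases. The counting is not stated to use strand. Multiplying FPKM by gene length gave multiples of 1 step per sample, whole within 0.1 of a read, for 100% of values above 0, which gave the reads per gene and the depth. Intervals from reads cover counting error only.

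All 6 samples, labelled as 3 biological replicates per group, were used, although the methods of the study speak of fewer per condition for its own test, and no value column lacked a sample. Genes with a mean of at least 0.5 FPKM were tested with limma 3.58.1 in R 4.3.3 on log2(FPKM + 0.5), with an empirical Bayes trend and Benjamini-Hochberg adjustment over all genes tested. Fold changes are on that scale, which understates the change of low genes. Members under the filter were compared by a two-sided exact permutation test of mean FPKM. GC content was the mean over GENCODE transcripts of a gene (GRCh37 models matched by gene ID), known for 98.8% of genes tested, and the correction was a loess fit with a span of 0.3 per sample.

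The members, lists and alternatives were chosen with earlier results of these data known. The rule for full values took the 5 regulators, 8 classical targets, called members, the 5 largest changes each way, the AKR1C genes and the most abundant member. Other genes of the pathway were named when called, and a further gene that the rule named is not reported here. Alternatives were an added 1 or 0.1 FPKM, no filter or a mean of at least 1 FPKM, quantile normalization, median-of-ratios scaling, a robust or trend-free limma fit, voom on recovered reads, the GC correction, a replicate block, both together, and leaving out each replicate. The test was checked on simulated data. Python 3.11, pandas 2.3.3, scipy 1.17.1 and matplotlib 3.10.9 were used.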

Additional observations from a re-analysis of the deposited data

How the results depend on the processing

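The 4 members called became 0 by limma with no filter, without the trend, with the replicate block and with the GC correction plus block, at 15, 14, 11 and 13 members with an unadjusted p under 0.05 against 17 before. The shares of all genes at that p were 14.3, 26.5, 23.5 and 26.4% against 27.5% before. The members called became 1 with median-of-ratios scaling and 8 with the GC correction, where 3.90% and 11.9% of all genes were called. The 3 called higher became 0 in those first settings and with median-of-ratios scaling, and 7 with the GC correction. The 1 called lower became 0 in the first settings and 2 with voom. Leaving out 1 replicate gave 0 to 7 members, 0 to 5 higher and 0 to 2 lower. At an unadjusted p under 0.05 there were 8 to 19 members (19.0 to 45.2%), beside 16.9 to 34.7% of all genes. Members called were 0 without NS control replicate 2, BCL9 KD replicate 2 or BCL9 KD replicate 3. In these fits 0.0873, 0.0943 and 0.0363% of all genes were called. Without NS control replicate 3 there were 7 members called (16.7%), against 12.6% of all genes. Among all genes, 807 calls became 142 with no filter, 536 with median-of-ratios scaling, 332 without the trend, 1403 with voom, 1630 with the GC correction, 156 with that and the block, and 5 to 1729 when a replicate was left out. The 8 other pathway genes became 2 with no filter, 4 without the trend, 3 with the GC correction plus block, and 0 to 10 when a replicate was left out. The members' median of 0.07 was −0.0013 with quantile normalization. The cause of these changes was not tested.

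The labels number the replicates 1 to 3 in both groups. Same-numbered samples had correlations of −0.147, −0.0884 and −0.00287 in their deviations from the group means. With 3 such values, on deviations from means of 3 samples, whether the flasks were handled in pairs cannot be decided. With the replicate block, 0 genes, 0 members and 0 other pathway genes were called by limma (3235 genes at an unadjusted p under 0.05), and BCL9 was no longer called (−0.99, adjusted p = 0.0656). A block over balanced groups cannot move the fold change itself. When a replicate was left out, BCL9 ran from −1.06 to −0.95 and was called in 3 of 6 fits, with adjusted p of 0.0636, 0.0589 and 0.0700 without NS control replicate 2, BCL9 KD replicate 2 and BCL9 KD replicate 3.

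Among the 30 genes followed through the settings, fold changes near 0 turned direction. KEAP1 was 0.0192 and SQSTM1 0.0193 with the GC correction, with or without the block. NQO1 was −0.0281 with median-of-ratios scaling and −0.0644 with quantile normalization. When a replicate was left out, KEAP1 ran from −0.13 to 0.0092, SQSTM1 from −0.12 to 0.0078, GCLM from −0.287 to 0.0716 and NQO1 from −0.0241 to 0.0889. For the 30 genes followed, 303 of 358 values kept direction and side of the threshold under the other settings, and 124 of 180 when a replicate was left out (44 lost the call and 7 turned direction). Depth limits SRXN1, AKR1B10, ABCC2, GPX3, HMOX1 and OSGIN1, with under 100 reads a sample.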
